A study of Mus musculus with 36 samples.

Results

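Livers of mice kept under chronic intermittent hypoxia (IH) were compared between the start of the daily hypoxic window and a point 4 h into it. The comparison takes the 3 IH libraries of Zeitgeber time 4 (ZT4, in hours after lights on at ZT0) against the 3 IH libraries of ZT0, so 6 of the 36 libraries of the series. The mice were wild-type C57BL/6JRj males, 16 weeks old at the study, housed 5 to a cage with free access to chow under 12 h of light and 12 h of dark. IH consisted of 60 cycles each hour between 21% and 5% inspired oxygen, from ZT0 to ZT8 on every day of 4 weeks. Controls breathed the same cycles of plain air, and the 3 control libraries of ZT0 and the 3 of ZT4 give the change over the same hours without hypoxia. Each library was made from polyadenylated RNA of 1 whole-liver sample. Time of day and hours of hypoxia pass together between ZT0 and ZT4 in the IH mice and cannot be told apart within them. The labels do not say whether the ZT0 livers were taken before the first cycle of that day.

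The liver clock is a loop in which the activators BMAL1 (gene Arntl) and CLOCK drive their own repressors, the PER, CRY and REV-ERB (Nr1d1, Nr1d2) proteins, through the E-box sequence. It also drives output factors such as DBP and TEF, which pass the rhythm on to metabolic genes. The morning hours, in which these livers were sampled, are the start of the rest and fasting phase of the mouse. Low oxygen acts mainly through hypoxia-inducible factors (HIF), which are stabilised when prolyl hydroxylases lack oxygen, and the liver answers protein stress with cytosolic heat shock chaperones and with the unfolded protein response of the endoplasmic reticulum.

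Values are FPKM (fragments scaled to transcript length and to the mapped fragments of the library). Changes are differences of log2(FPKM + 1), ZT4 minus ZT0, a scale that understates the change of genes below a few FPKM. Over the 6 libraries the FPKM of uniquely listed symbols summed to between 540095 and 579428, between 15917 and 16188 symbols were above 0, and Pearson's r between replicates, taken over genes, lay between 0.978 and 0.995. Read counts are unknown. The steps between low values put the depth of the 6 libraries between 0.918 and 1.16 times that of ZT0 replicate 1. The median SD of a gene over 3 replicates was 0.133 at ZT0 and 0.075 at ZT4 on the log2 scale.

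One library stood apart. In ZT0 replicate 2 Saa1, an acute phase protein that the liver makes under inflammation, was at 22900 FPKM, against 30.6 to 111 FPKM in the other 5 libraries. Saa2 was at 33.8, 24900 and 24.6 FPKM in ZT0 replicates 1 to 3, and the iron-binding acute phase protein Lcn2 was at 6.61, 1440 and 5.83 FPKM. The summed level of 8 neutrophil markers was 15.1 FPKM in this library and 1.08 to 2.6 FPKM in the others. Results without ZT0 replicate 2 are therefore given beside those with it. The label of liver was checked with 10 hepatocyte markers, whose summed level lay between 44500 and 51900 FPKM at ZT0 and between 58100 and 61500 FPKM at ZT4, with 1 of the 10, Cyp2e1, called higher. In whole liver, fewer cells of a type and less RNA per cell cannot be told apart. None of the Kupffer cell, sinusoidal endothelial, stellate, cholangiocyte, neutrophil, lymphocyte or red blood cell markers passed the test in either direction, and neither did the pancreatic acinar markers. Of the 7 acinar markers listed, Prss2, Ctrb1 and Pnlip were at 0 in all 6 libraries, and the summed level of the list was 10.1 to 25.7 FPKM, nearly all of it from Cela1.

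Of 13215 genes tested with limma, 193 (1.46%) were higher and 97 (0.734%) lower at ZT4 than at ZT0 in IH at a Benjamini-Hochberg adjusted p of at most 0.05. The median change was 0.69 among the higher genes, with a range of 0.27 to 4.58, and -0.78 among the lower genes, with a range of -2.65 to -0.30. Changes of more than 1 on the log2 scale were found in 36 of the higher and 28 of the lower genes. Over all genes tested the median change was 0.02. On the log2 scale the largest increases were those of Rgs16, Dbp, Nr1d1, Tef and Klf10, all clock genes or clock outputs. The largest decreases included the nuclear receptor Ppard, the chaperone Hsph1 and the tubulin Tubb2a.

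The number of calls depended on each of the 6 libraries. With ZT0 replicate 2 left out, 35 genes (0.265%) were higher and 28 (0.212%) lower, among them 29 of the 193 and 18 of the 97. Leaving out ZT0 replicate 1 gave 20 and 17, ZT0 replicate 3 gave 842 and 635, ZT4 replicate 1 gave 9 and 6, ZT4 replicate 2 gave 5 and 1, and ZT4 replicate 3 gave 1 and 0. With 1 library of an arm left out, the fit rests on 3 residual degrees of freedom. The groups of all 193 higher and all 97 lower genes did not overlap. Leaving out 1 library could therefore not change the sign of any, and none changed. A fit over all 18 IH libraries, which shares 1 estimate of the spread across the 6 time points, called 1308 genes (9.9%) higher and 886 (6.7%) lower, among them 190 of the 193 and 92 of the 97.

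**Figure D1:**
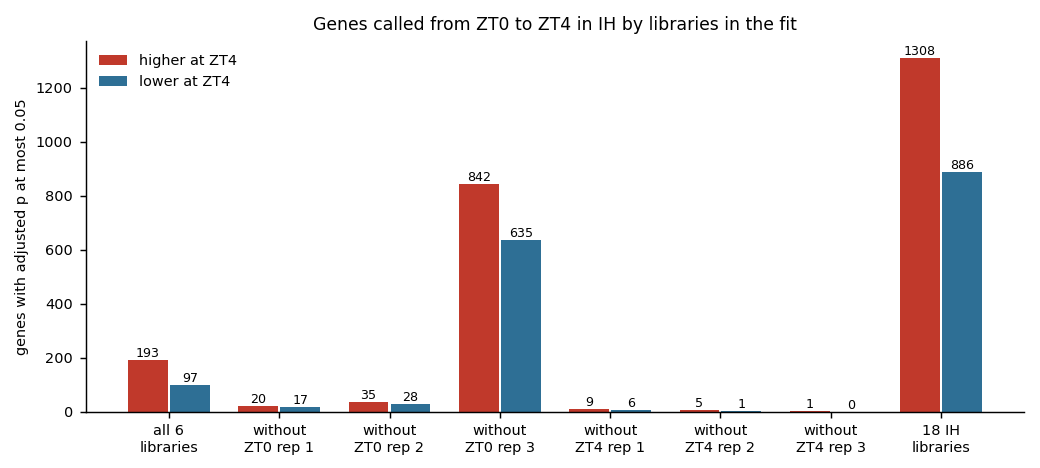
Number of genes past an adjusted p of 0.05 (y axis) for the change from ZT0 to ZT4 in IH, by the libraries in the fit (x axis), with genes higher at ZT4 in red and lower in blue. The 193 and 97 calls of the 6 libraries fell to 35 and 28 without ZT0 replicate 2, rose to 842 and 635 without ZT0 replicate 3, and were 1308 and 886 with all 18 IH libraries.

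The sequences of 3 clock-controlled genes that passed the test are shown first because the E-box CACGTG is the binding sequence of BMAL1 and CLOCK. They are stretches of RefSeq promoters (build GRCm38.p6) written 5′ to 3′ along the strand of the gene, with the E-box in capitals. It starts 127 bases before the RefSeq start used in Tef, 153 in Bhlhe41 and 60 in Cry1. Tef has 2 RefSeq promoters, and the one shown is the first listed that held an E-box. The Tef stretch lies after the start of the gene in GENCODE (chr15:81802421). Tef and Bhlhe41 were higher and Cry1 was lower at ZT4.
Tef (chr15:81802506-81802591, plus strand): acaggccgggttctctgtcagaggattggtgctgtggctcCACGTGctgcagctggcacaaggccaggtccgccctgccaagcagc
Bhlhe41 (chr6:145865528-145865613, minus strand): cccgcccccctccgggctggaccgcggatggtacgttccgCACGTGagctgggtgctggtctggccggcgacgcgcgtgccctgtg
Cry1 (chr10:85185069-85185154, minus strand): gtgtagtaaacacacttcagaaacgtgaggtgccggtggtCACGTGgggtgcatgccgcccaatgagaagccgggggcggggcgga
The windows searched ran from 250 bases before to 50 bases after a RefSeq start of the gene, on both strands. They were at hand for 9981 of the 13215 genes. CACGTG was found in 25 of 144 genes called higher (17.4%), in 14 of 70 called lower (20.0%) and in 1167 of all 9981 (11.7%). The windows of Rgs16, Nr1d1, Nr1d2, Dbp, Cry2, Nfil3 and Cdkn1a held none. The cyclic AMP response element TGACGTCA was found in 3 of the 144 higher genes (2.08%), in 6 of the 70 lower genes (8.57%) and in 3.53% of all. Those 6, named after their values were seen, were 1300002E11Rik, Pnpla3, Stk38l, Tra2a, Tubb2a and Zbtb21. The D-box (TTATGTAA or TTATGCAA) was found in 1 higher and no lower gene. The ROR response element was in no higher and 1 lower gene. These shares are descriptions and were not tested.

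Among 17 core clock genes, 3 were higher and 1 was lower at ZT4. Nr1d1, which encodes the repressor REV-ERBα, was at 3.56, 8.24 and 2.74 FPKM in ZT0 replicates 1 to 3 and at 55, 54.6 and 55.6 FPKM in ZT4 replicates 1 to 3 (log2 change 3.38, SE 0.31, adjusted p = 0.017). Its relative Nr1d2 was at 1.45, 3.43 and 3.29 FPKM at ZT0 and at 11.4, 14.2 and 14.5 FPKM at ZT4 (log2 change 1.99, SE 0.24, adjusted p = 0.023). Every ZT4 library lay far above every ZT0 library for both, and the highest ZT0 value of Nr1d1 was in replicate 2. Nr1d1 lies at chr11:98767932-98775333 (GRCm38) and overlaps the 3′ end of Thra, a thyroid hormone receptor gene on the other strand. Whether fragments were assigned by strand is not given in the sources used here. The repressors Cry1 and Cry2 moved in opposite directions. Cry1 was at 5.64, 6.5 and 8.21 FPKM at ZT0 and at 2.8, 2.07 and 2.32 FPKM at ZT4 (log2 change -1.19, SE 0.14, adjusted p = 0.023). Cry2 was at 3.94, 3.96 and 4.54 FPKM and then at 8.24, 8.1 and 9.41 FPKM (log2 change 0.90, SE 0.09, adjusted p = 0.017). The groups of each gene were well apart, and Cry1 missed the threshold without ZT0 replicate 2 (adjusted p = 0.057).

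The other core clock genes did not pass the test. Arntl, the gene of BMAL1, was at 9.6, 10.1 and 11.6 FPKM at ZT0 and at 6.75, 2.78 and 2.08 FPKM at ZT4 (log2 change -1.35, SE 0.33, adjusted p = 0.085), and Npas2, a dimer partner of BMAL1, was at 2.75, 2.45 and 3.9 and at 1.34, 0.393 and 0.209 FPKM (log2 change -1.34, SE 0.26, adjusted p = 0.056). For both genes the 3 ZT4 values lay below the 3 ZT0 values but were spread widely, with replicate 1 the highest. Per3 was at 0.14, 0.101 and 0.234 FPKM and at 0.691, 1.51 and 1.98 FPKM (log2 change 1.01, SE 0.20, adjusted p = 0.056). Per1 and Per2, which encode the period repressors, had overlapping groups, with Per1 at 0.643, 4.18 and 4.07 and 1.88, 3.26 and 7.19 FPKM and Per2 at 2.68, 1.09 and 1.38 and 0.884, 1.9 and 2.45 FPKM. The list median was 0.04 in IH and -0.11 in control.

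Clock output genes held the largest changes of the comparison, with 7 of 16 higher and 2 lower, against 1.46% and 0.734% of all genes. The list median was 0.70 in IH and -0.2 in control. Rgs16, a brake on G protein signalling that is expressed in the hepatocytes around the portal vein in fasting, was at 1.02, 2.23 and 5.07 FPKM at ZT0 and at 86.8, 77.5 and 78 FPKM at ZT4 (log2 change 4.58, SE 0.37, adjusted p = 0.017). On the log2 scale this was the largest rise of any gene called, and the lowest ZT4 value was many times the highest ZT0 value. As a ratio of mean FPKM the rise of Dbp was larger, 234-fold against 29.1-fold, from a ZT0 mean of 0.109 FPKM. Dbp, a PAR bZIP activator, was at 0.122, 0.0637 and 0.14 FPKM at ZT0 and at 8.78, 30.5 and 37.1 FPKM at ZT4 (log2 change 4.36, SE 0.48, adjusted p = 0.018). Its ZT4 libraries were themselves spread, with replicate 1 the lowest. Its relative Tef was at 3.29, 2.48 and 4.28 FPKM and at 13.5, 21.4 and 25.2 FPKM (log2 change 2.25, SE 0.25, adjusted p = 0.018). The third relative, Hlf, missed the threshold (means 4.25 to 8.06 FPKM, adjusted p = 0.06).

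Nfil3, the repressor that competes with DBP and TEF for the D-box, moved the other way, from 27, 37 and 31.7 FPKM at ZT0 to 9.97, 5.72 and 6.51 FPKM at ZT4 (log2 change -1.99, SE 0.20, adjusted p = 0.017). The cyclin-dependent kinase inhibitor Cdkn1a was also lower, at 8.9, 18.1 and 11.4 FPKM and then at 3.7, 1.62 and 1.47 FPKM (log2 change -2.09, SE 0.32, adjusted p = 0.038). The remaining calls were of the mitotic kinase Wee1 (0.66), the E-box repressors Bhlhe40 (1.14) and Bhlhe41 (0.63) and the transcription factor Klf10 (2.22), all higher, in log2 change. Without ZT0 replicate 2, 1 of the 16 genes (Rgs16, adjusted p = 0.035) remained higher and 1 (Nfil3, adjusted p = 0.044) lower, with a list median of 0.61. With all 18 IH libraries 9 were higher and 3 lower, against 9.9% and 6.7% of all genes.

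**Figure D2:**
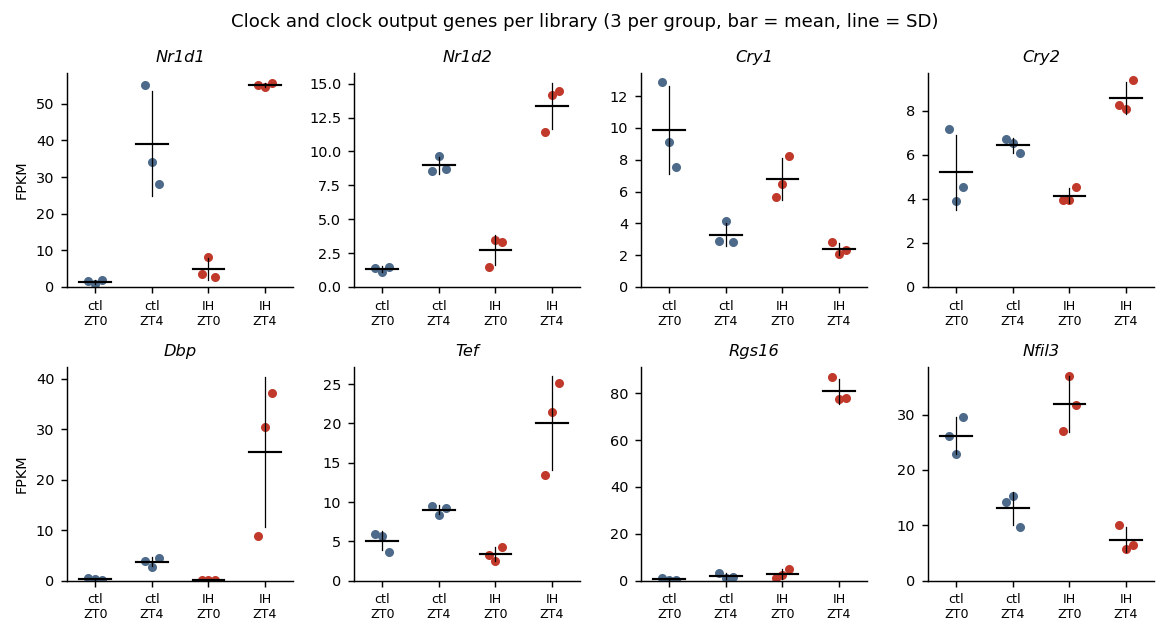
FPKM (y axis, linear) of 8 clock and clock output genes in each of the 3 control libraries (blue) and 3 IH libraries (red) at ZT0 and ZT4 (x axis), with the mean as a bar and the SD as a line. Rgs16 reached 77.5 to 86.8 FPKM at ZT4 in IH and at most 3.42 FPKM in control, while Nr1d1 and Nr1d2 were higher at ZT4 than at ZT0 in both conditions.

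In control livers over the same hours, 9 genes (0.0681%) were higher and 24 (0.182%) lower. Nr1d1, Nr1d2, Dbp, the histidine decarboxylase gene Hdc and Rdh9 were higher in both conditions, and 5 genes, among them Ppard, Hist2h3b, Lgalsl and Ncoa5, were lower in both. These are 55.6% of the higher and 20.8% of the lower control calls, and 2.59% and 5.15% of the IH calls. No gene was called in opposite directions. The control livers are not those of the IH comparison. Of the genes called higher in IH, 151 of 193 (78.2%) had a positive change in control, and of those called lower, 88 of 97 (90.7%) had a negative one. Over all genes with a positive change in IH, 2912 of 7188 (40.5%) had the same sign in control. Of those with a negative change, 4447 of 6008 (74.0%) did. The median change over all genes was -0.06 in control and 0.02 in IH, which bears on these shares.

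The difference between the IH and the control change was tested directly as an interaction over the 12 libraries. No gene of 13215 passed an adjusted p of 0.05 with limma. An unadjusted p of at most 0.05 was found for 2428 (18.4%), of which 1864 changed more upwards in IH and 564 more downwards. The smallest adjusted p was 0.065. So a gene called in IH and not in control is not thereby shown to differ between them. The median difference over all genes was 0.09, and 0.01 after median-ratio scaling of the libraries. Such a shift of all genes bears on the upward and downward counts. The 5 genes with the smallest p were Pi4k2a, Tfrc, Cxadr, Zfp276 and Prickle4. Tfrc, the transferrin receptor, was at 2.47, 2.47 and 2.49 FPKM in control at ZT0 and at 2.12, 2.74 and 2.6 FPKM at ZT4, and in IH at 3.43, 3.22 and 3.54 and 1.68, 1.36 and 1.31 FPKM (difference of the log2 changes -0.85, SE 0.12, unadjusted p = 2.1e-05, adjusted p = 0.065). The cell adhesion receptor Cxadr was at 14, 13.9 and 15.1 and 17.9, 17.1 and 16.9 FPKM in control and at 19, 23.6 and 17.8 and 12.6, 10.4 and 10.6 FPKM in IH (difference of the log2 changes -1.04, SE 0.15, unadjusted p = 2.3e-05, adjusted p = 0.065). In both genes the ZT4 values were below the ZT0 values in IH, and in control they overlapped for Tfrc and were higher for Cxadr. Rgs16 was at 1.1, 0.336 and 0.281 and 3.42, 1.02 and 1.58 FPKM in control, so that its change there was 0.89 (difference of the log2 changes 3.69, SE 0.54, unadjusted p = 2.9e-05, adjusted p = 0.065).

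The hypoxia list held 42 targets and regulators of HIF, of which 37 were tested. At 4 h into the hypoxic window 1 was higher and 1 was lower (5.41%, against 2.19% of all genes in either direction). The list median was -0.09 in IH and -0.11 in control. Bnip3, a HIF target that starts the removal of mitochondria, was at 59.1, 46.1 and 59.6 FPKM at ZT0 and at 101, 110 and 122 FPKM at ZT4 (log2 change 1.00, SE 0.13, adjusted p = 0.025). Its groups were well apart, and the call held without ZT0 replicate 2 (adjusted p = 0.038). In control it was at 59.8, 52.2 and 58.2 and at 60, 66.8 and 60.5 FPKM (log2 change 0.14). Tfrc, also a HIF target, fell instead, as given above (log2 change -0.85, SE 0.09, adjusted p = 0.017).

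Other HIF targets gave no call. Vegfa, the endothelial growth factor, had means of 55.6 to 57.6 FPKM at ZT0 and ZT4 (log2 change 0.07, SE 0.17, adjusted p = 0.82). The glucose transporter Slc2a1 went from a mean of 4.06 to 3.32 FPKM and the glycolytic enzyme Ldha from 412 to 317 FPKM, both with overlapping groups. The prolyl hydroxylase genes Egln1 and Egln3 changed by -0.01 and 0.14, and Hif1a itself by 0.10. P4ha1 (adjusted p = 0.067), Pfkfb4 (0.076) and Ddit4 (0.076) had ZT4 values below all ZT0 values without passing the threshold, and P4ha1 passed it without ZT0 replicate 2 (adjusted p = 0.032). The log2 change of P4ha1 was -0.90 in IH and -1.02 in control, where its ZT4 values also lay below all ZT0 values. Pfkfb4 and Ddit4 changed by 0 and -0.70 in control, with overlapping groups.

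Of 28 heat shock chaperones 6 passed the test, all lower at ZT4, and the 3 ZT4 values lay below the 3 ZT0 values in 21 of 28, against 13.1% of all genes. The list median was -0.62 in IH and -0.27 in control. Hsph1, a nucleotide exchange factor of the HSP70 chaperones, was at 35.2, 24.2 and 15.4 FPKM at ZT0 and at 2.85, 3.1 and 3.98 FPKM at ZT4 (log2 change -2.52, SE 0.28, adjusted p = 0.018). Hsp90aa1, the stress-inducible HSP90, was at 156, 103 and 73.8 and at 30.3, 28.6 and 27 FPKM (log2 change -1.85, SE 0.25, adjusted p = 0.028). In both genes the ZT0 libraries were spread, with replicate 1 the highest, and the ZT4 libraries were low and close together. Stip1, which links HSP70 to HSP90, was at 73, 51.6 and 45.7 FPKM and then at 25.1, 23.6 and 22.9 FPKM (log2 change -1.19, SE 0.17, adjusted p = 0.032).

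The co-chaperone Bag3 was also lower (log2 change -1.07, SE 0.18, adjusted p = 0.047). The inducible HSP70 genes Hspa1a (-1.26) and Hspa1b (-1.76) were lower as well, but are near-identical copies between which fragments may be split. Hspa8, the constitutive HSP70, was at 1160, 576 and 514 FPKM and at 275, 299 and 370 FPKM without passing the threshold (adjusted p = 0.099), and Hspa9 of the mitochondria had overlapping groups (0.00). A heat shock element (3 inverted repeats of the pentamer NGAAN, either strand) was found in the windows of 4 of 22 chaperone genes (18.2%), against 0.591% of all genes. Hsph1 held 1 in the reading TTCTGGAAAGTTC, starting 36 bases after a RefSeq start of the gene. The others were Chordc1, Hspd1 and Hspe1, which did not pass the test. Hspd1 and Hspe1 lie on opposite strands with overlapping windows, and their elements fall in the same stretch of DNA, so they are not independent finds. Without ZT0 replicate 2 none of the 6 passed, the adjusted p of Hsph1 was 0.055, and the list median was -0.68. In that fit 2 other chaperones, Dnajb1 and Fkbp4, passed as lower. With all 18 IH libraries 16 were lower, against 6.7% of all genes, among them 5 of the 6 but not Hspa1a. In control none passed, and the ZT4 values lay below all ZT0 values in 16 of the 28, against 21.6% of all genes in control. The log2 changes of Hspa1a and Hspa1b there were -1.84 and -2.50.

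Of the 3 cold-inducible RNA-binding genes 2 were higher, with a list median of 0.64 in IH and 1.05 in control. Cirbp was at 6.35, 8.5 and 10.8 FPKM at ZT0 and at 25.5, 28.5 and 20.1 FPKM at ZT4 (log2 change 1.44, SE 0.20, adjusted p = 0.03), and Srsf5, a splicing factor, was at 87.7, 91.6 and 108 and at 146, 158 and 144 FPKM (log2 change 0.64, SE 0.10, adjusted p = 0.042). In control Cirbp was at 8.54, 5.61 and 10.4 and 18.7, 23.6 and 18 FPKM (log2 change 1.23, SE 0.21, adjusted p = 0.059). The third gene, Rbm3, had overlapping groups in IH. Without ZT0 replicate 2 neither Cirbp (adjusted p = 0.067) nor Srsf5 (0.072) passed.

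Genes of the unfolded protein response had the lowest list median, -0.75 in IH and 0.01 in control, but only 1 of 28 passed the test, and that one was higher. In 20 of 28 genes the ZT4 values lay below all ZT0 values, against 13.1% of all genes. Hspa5, the main chaperone of the endoplasmic reticulum, was at 553, 823 and 265 FPKM at ZT0 and at 116, 134 and 139 FPKM at ZT4 (log2 change -1.93, SE 0.38, adjusted p = 0.059). Hyou1, its exchange factor, was at 98.4, 137 and 38.5 and at 13.6, 16.5 and 15.5 FPKM (log2 change -2.33, SE 0.43, adjusted p = 0.051), and Manf, a secreted factor of the same response, was at 102, 139 and 39.7 and at 14.6, 20.1 and 19.1 FPKM (log2 change -2.16, SE 0.44, adjusted p = 0.061). In all 3 genes replicate 2 was the highest and replicate 3 the lowest of the ZT0 livers, and the ZT4 livers were uniform. In control Hspa5 was at 299, 509 and 270 and at 251, 439 and 220 FPKM. Without ZT0 replicate 2 the list median was -0.58 and the adjusted p of Hspa5 was 0.083. With all 18 IH libraries 18 of the 28 were lower, against 6.7% of all genes. Trib3, a pseudokinase induced by amino acid and metabolic stress, was the gene that passed, at 1.07, 1.85 and 1.6 FPKM and then at 8.23, 6.38 and 10.1 FPKM (log2 change 1.87, SE 0.18, adjusted p = 0.017).

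Tubulins, the subunits of microtubules, were picked out after their values were seen. Of 11 alpha and beta tubulin genes tested 6 were lower and none was higher. The ZT4 values lay below all ZT0 values in 9, against 13.1% of all genes. Tubb2a was at 163, 156 and 165 FPKM at ZT0 and at 49.4, 34.3 and 23.7 FPKM at ZT4 (log2 change -2.20, SE 0.24, adjusted p = 0.018), and Tubb2b at 23.4, 22.3 and 23.9 and at 7.36, 4.71 and 3.82 FPKM (log2 change -1.98, SE 0.19, adjusted p = 0.017). The ZT0 livers were nearly equal in both genes, and the ZT4 livers were all lower and more spread. In control Tubb2a was at 107, 108 and 116 and at 108, 74.1 and 86.2 FPKM. Tuba1a (-0.78), Tuba1b (-0.61), Tuba1c (-0.94) and Tubb4b (-0.89) were the other calls. Tubb2a and Tubb2b are neighbours on chromosome 13 with very similar sequences, as are the Tuba1 genes among themselves, so that fragments may be split between copies. With ZT0 replicate 2 left out, Tubb2b (adjusted p = 0.044) and Tuba1a (0.039) passed, and Tubb2a (0.053), Tuba1b (0.055) and Tuba1c (0.055) did not. Tubb4b lay just above the threshold. Tuba4a, not called with all 6 libraries, passed as lower (0.032).

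**Figure D3:**
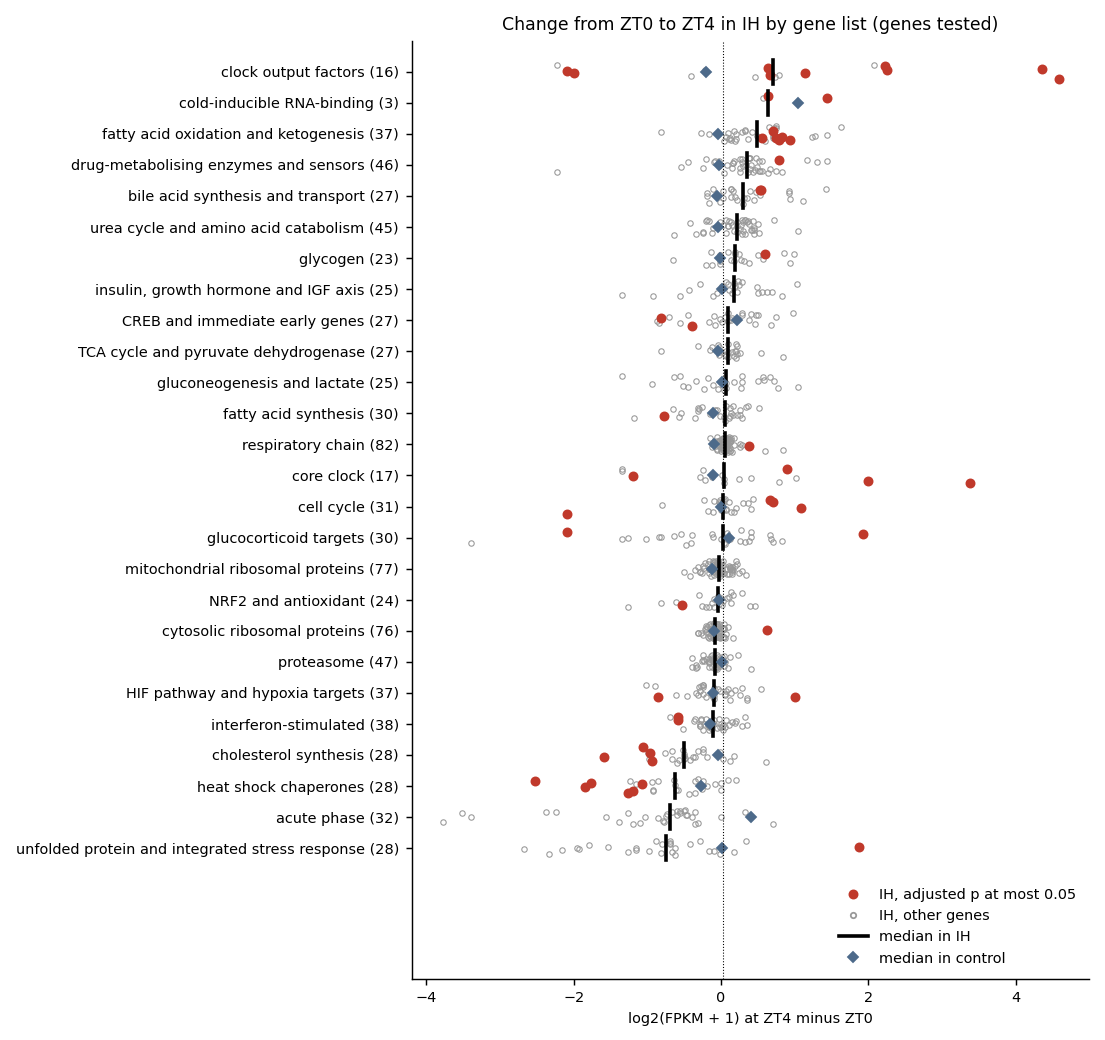
Change in log2(FPKM + 1) from ZT0 to ZT4 (x axis) of every tested gene of 26 lists (y axis, genes tested in brackets), with genes called in IH in red, other genes in grey, the list median in IH as a black bar and in control as a blue diamond. The medians in IH run from -0.75 in the unfolded protein response to 0.70 in clock output factors, and the dotted line is the median of all genes, 0.02.

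Of 28 genes of cholesterol synthesis and its control 4 were lower and none higher, with a list median of -0.51 in IH against -0.04 in control. In 19 of the 28 the ZT4 values lay below all ZT0 values, against 13.1% of all genes. Mvd, a decarboxylase of the mevalonate pathway, was at 40, 37.1 and 27.1 FPKM at ZT0 and at 11.2, 11.7 and 9.32 FPKM at ZT4 (log2 change -1.59, SE 0.16, adjusted p = 0.017). Insig1, the sterol sensor that holds SREBP back, was at 232, 188 and 170 and at 107, 93.9 and 96.7 FPKM (log2 change -0.97, SE 0.13, adjusted p = 0.028). The groups were clearly separated in both, with ZT0 replicate 1 the highest. In control Mvd was at 22.8, 17.4 and 27.5 and at 17.2, 10.7 and 13.9 FPKM and Insig1 at 116, 129 and 157 and at 140, 131 and 135 FPKM, with neither called. Of the 4 calls 2 held without ZT0 replicate 2, among them Mvd (adjusted p = 0.044) but not Insig1 (0.06). With all 18 IH libraries 8 were lower and 1, Scap, was higher, against 6.7% and 9.9% of all genes.

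Of 30 genes of fatty acid synthesis, 1 passed (3.33%, against 2.19% of all genes in either direction). Pnpla3, a lipid droplet protein driven by SREBP1, was at 1.9, 1.21 and 1.42 FPKM and then at 0.632, 0.487 and 0.271 FPKM (log2 change -0.78, SE 0.13, adjusted p = 0.046), and missed the threshold without ZT0 replicate 2 (adjusted p = 0.064). Fasn, the fatty acid synthase, was at 102, 65.4 and 67.4 FPKM and at 74.4, 63.2 and 49.1 FPKM, with overlapping groups. Without that library Thrsp, a lipogenic regulator, was called lower instead. The list median was 0.05.

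Of 37 genes of fatty acid oxidation and ketogenesis 6 were higher and none lower, with a list median of 0.49 in IH against -0.04 in control. In 22 of the 37 the ZT4 values lay above all ZT0 values, against 18.1% of all genes. Cpt1a, which admits long fatty acids to mitochondria, was at 33.9, 48.4 and 42.1 FPKM at ZT0 and at 81.6, 76.1 and 80.2 FPKM at ZT4 (log2 change 0.93, SE 0.13, adjusted p = 0.031). The ketone body enzyme Bdh1 was at 49.5, 42.2 and 47.6 and at 72.8, 65.3 and 67.2 FPKM (log2 change 0.55, SE 0.09, adjusted p = 0.042), and the fatty acid transporter Slc27a2 at 397, 306 and 338 and at 585, 602 and 611 FPKM (log2 change 0.79, SE 0.12, adjusted p = 0.037). The 3 ZT4 values lay above the 3 ZT0 values in each, and they were closer together than at ZT0 for Cpt1a and Slc27a2. Fgf21, a fasting hormone of the liver, was at 1.05, 1.28 and 1.18 FPKM and then at 2.84, 3.01 and 2.64 FPKM (log2 change 0.82, SE 0.08, adjusted p = 0.017). It was not called with all 18 IH libraries (adjusted p = 0.099), and its control livers were spread from 0.195 to 0.701 FPKM at ZT0 and from 0.402 to 2.35 FPKM at ZT4. Eci2 (0.75) and the nuclear receptor Ppara (0.70), which activates this programme, were the other calls. Cpt2, the inner membrane partner of Cpt1a, did not pass (log2 change -0.16, SE 0.10, adjusted p = 0.36). Without ZT0 replicate 2 the calls of Fgf21, Eci2 and Cpt1a remained and the median was 0.26.

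The triglyceride lipase Pnpla2 was higher too, at 18.2, 19.6 and 22 FPKM at ZT0 and 38.9, 39.2 and 43.3 FPKM at ZT4 (log2 change 0.99, SE 0.09, adjusted p = 0.017). So was the fructose transporter Slc2a5, at 0.605, 0.44 and 0.643 and 2.55, 2.68 and 2.78 FPKM (log2 change 1.23, SE 0.08, adjusted p = 0.0063). Txnip, an arrestin that limits glucose uptake and was named after its values were seen, was at 13.3, 12.9 and 18 and then at 68.2, 42.8 and 46 FPKM (log2 change 1.75, SE 0.20, adjusted p = 0.02). Its relative Arrdc3 was at 19.5, 11.5 and 7.81 and at 49, 55.3 and 43.6 FPKM (log2 change 1.93, SE 0.29, adjusted p = 0.037). All 4 genes had groups that did not overlap. Pnpla2 and Slc2a5 passed without ZT0 replicate 2 (adjusted p = 0.039 and 0.015), and Txnip (0.055) and Arrdc3 (0.076) did not.

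Ppard moved the other way. This nuclear receptor was at 27, 18.2 and 22.7 FPKM at ZT0 and at 2.97, 2.67 and 2.51 FPKM at ZT4 (log2 change -2.65, SE 0.14, adjusted p = 0.0063). On the log2 scale this was the largest decrease of any gene called, and it held without ZT0 replicate 2 (adjusted p = 0.0015). In control it was at 20, 23.2 and 18.6 and at 5.41, 4.4 and 3.97 FPKM (log2 change -1.95, SE 0.12, adjusted p = 0.0067). The difference between the conditions did not pass (difference of the log2 changes -0.70, SE 0.20, unadjusted p = 0.005, adjusted p = 0.13). Eif3j1, also called lower in IH, fell more as a ratio, from a mean of 5.41 to 0.0202 FPKM (log2 change -2.58, SE 0.25, adjusted p = 0.017). Its control livers were spread from 0.0253 to 11.9 FPKM at ZT0.

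Of 25 genes of gluconeogenesis and lactate handling none passed an adjusted p of 0.05 with limma, and 3 had an unadjusted p of at most 0.01, against 9.5% of all genes. Pck1, the first committed enzyme of gluconeogenesis, was at 134, 845 and 802 FPKM at ZT0 and at 734, 485 and 1010 FPKM at ZT4, and G6pc, the last, was at 146, 243 and 393 and at 459, 357 and 285 FPKM. Both were spread widely within each group, with ZT0 replicate 1 the lowest, and the groups overlapped. Fbp1 had overlapping groups too (0.06). Of 23 glycogen genes 1 passed (4.35%, against 2.19% of all genes in either direction), and 12 had ZT4 values above all ZT0 values, against 18.1% of all genes. None of the genes of either list passed without ZT0 replicate 2. Epm2a, the glycogen phosphatase laforin, was called (log2 change 0.60, SE 0.07, adjusted p = 0.018), but not without ZT0 replicate 2 (adjusted p = 0.055). Gys2, the liver glycogen synthase, was at 34.7, 23.9 and 39.6 FPKM and then at 49.1, 67.1 and 72.5 FPKM (log2 change 0.93, SE 0.22, adjusted p = 0.08), while Pygl, the phosphorylase, was at 195, 122 and 211 FPKM and at 176, 167 and 169 FPKM with overlapping groups. Its log2 change was -0.01, and -0.25 without ZT0 replicate 2 (adjusted p = 0.14). Gys2 was called with all 18 IH libraries (adjusted p = 0.0021).

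Bile acid genes had a list median of 0.30 in IH and -0.05 in control, with 2 of 27 higher (7.41%, against 1.46% of all genes) and none lower. The uptake carrier Slco1b2 was at 179, 198 and 191 FPKM at ZT0 and at 261, 279 and 290 FPKM at ZT4 (log2 change 0.54, SE 0.09, adjusted p = 0.042), and the canalicular pump Abcc2 at 17.2, 20.1 and 21.5 and at 28.5, 29 and 28.6 FPKM (log2 change 0.53, SE 0.09, adjusted p = 0.049). Neither passed without ZT0 replicate 2 (adjusted p = 0.055 and 0.078). With all 18 IH libraries 12 were higher, against 9.9% of all genes. Cyp7a1, the rate-limiting enzyme of bile acid synthesis, had overlapping groups (log2 change 0.19, SE 0.51, adjusted p = 0.85). Of 46 drug-metabolising genes only Cyp2e1, which oxidises ethanol and acetone, was called, at 2400, 2210 and 2440 FPKM and then at 3750, 4030 and 4380 FPKM (log2 change 0.79, SE 0.14, adjusted p = 0.049), and without ZT0 replicate 2 its adjusted p was 0.057. Alas1, the gate of haem synthesis, was at 349, 56.3 and 88.4 FPKM and at 18, 52.6 and 16.4 FPKM, with no overlap but without passing (adjusted p = 0.15).

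**Figure D4:**
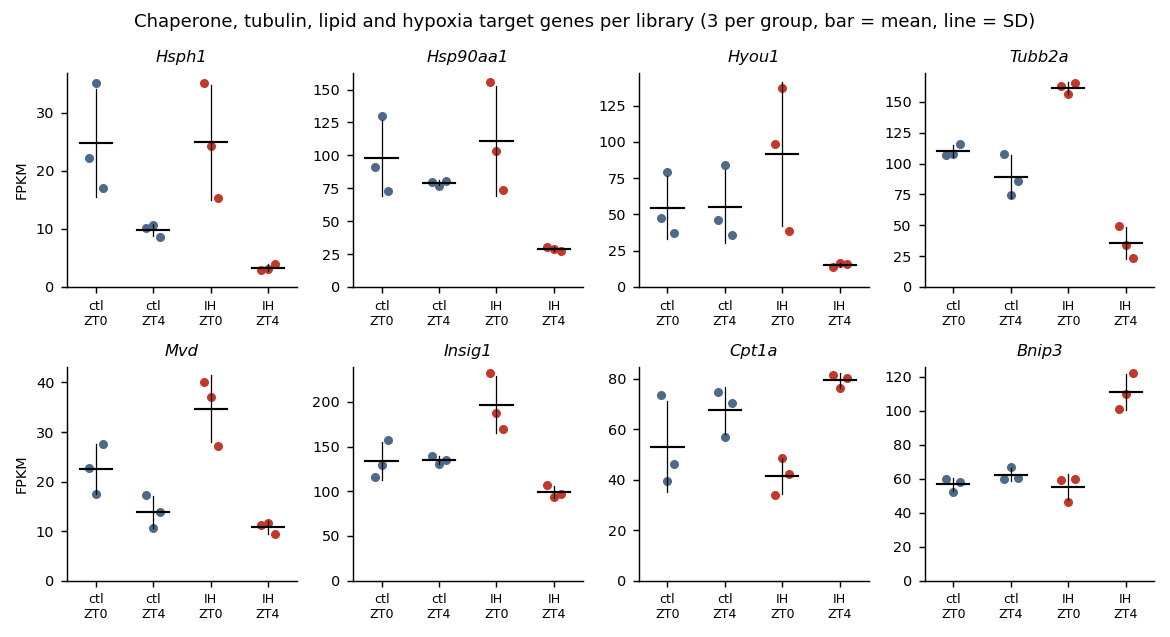
FPKM (y axis, linear) of 8 genes in each of the 3 control libraries (blue) and 3 IH libraries (red) at ZT0 and ZT4 (x axis), with the mean as a bar and the SD as a line. In IH the 3 ZT4 values of Hsph1, Hsp90aa1, Hyou1, Tubb2a, Mvd and Insig1 lie below the 3 ZT0 values, and those of Cpt1a and Bnip3 above them, with Bnip3 at 101 to 122 FPKM against 46.1 to 59.6 FPKM.

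Cell cycle genes gave 3 higher and 1 lower of 31 (12.9%, against 2.19% of all genes in either direction), the lower one being Cdkn1a. Cdt1, which licenses replication origins, was the most clearly separated of them. It was at 0.711, 0.842 and 0.679 FPKM at ZT0 and at 2.67, 2.76 and 2.72 FPKM at ZT4 (log2 change 1.09, SE 0.07, adjusted p = 0.0063), with both groups tight and far apart. Rrm2 (0.71), a subunit of ribonucleotide reductase, and Wee1 were the other higher genes. The list median was 0.03 in IH and 0 in control. In 8 of the 31 the ZT4 values lay above all ZT0 values, against 18.1% of all genes. One of these 8, the helicase subunit gene Mcm3 (0.30), was called with all 18 IH libraries but not with the 6. Of 27 CREB-driven and immediate early genes, Crem (-0.82) and Jund (-0.39) were lower (7.41%, against 0.734% of all genes), and none was higher. In 4 others of the 27, Crtc2, Cyr61, Maff and Ier2, the ZT4 values lay above all ZT0 values, against 18.1% of all genes. Crtc2 (0.48) and Cyr61 (0.97) were called higher with all 18 IH libraries, against 9.9% of all genes. The acute phase list of 32 genes gave no call with limma and none at an unadjusted p of at most 0.01. Its median was -0.69, and -0.18 without ZT0 replicate 2, when the metallothionein gene Mt1 alone was called, as higher. Of the interferon genes Irgm1 (-0.58) and Stat2 (-0.58) were lower, and of the NRF2 targets the thioredoxin reductase gene Txnrd1 was lower (log2 change -0.53, SE 0.07, adjusted p = 0.024). Of the genes called in these lists, Cdt1 and Irgm1 also passed without ZT0 replicate 2, and Rrm2, Wee1, Cdkn1a, Crem, Jund, Stat2 and Txnrd1 did not.

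Of 82 respiratory chain genes 1 passed, the low-expressed Cox8b, against 2.19% of all genes called in either direction, and the list median was 0.05. Of 27 genes of the tricarboxylic acid cycle and pyruvate dehydrogenase none passed and 1 had an unadjusted p of at most 0.01. The medians were -0.08 for 76 cytosolic ribosomal proteins, -0.03 for 77 mitochondrial ribosomal proteins and -0.08 for 47 proteasome genes. Rps27 was the only call among them (log2 change 0.62, SE 0.09, adjusted p = 0.037). It was not called with all 18 IH libraries (adjusted p = 0.67), and it has near-identical copies elsewhere in the genome. The proteasome held 17 genes with ZT4 values below all ZT0 values, against 13.1% of all genes, none past the threshold. Urea cycle and amino acid genes gave no call of 45, and the insulin, growth hormone and IGF axis none of 25, with 3 and 2 genes at an unadjusted p of at most 0.01. Without ZT0 replicate 2 none of the genes of these 7 lists passed, with Cox8b at an adjusted p of 0.087 and Rps27 at 0.074. Of 30 glucocorticoid targets Arrdc3 was higher and Cdkn1a lower (6.67%, against 2.19% of all genes in either direction). Of 24 genes that the study names for the liver transcriptome, a list chosen on these samples and so no independent evidence, Nr1d1, Nr1d2 and Cry2 were higher and Cry1 lower.

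Means at the later times of the IH day show where the ZT4 values stood, as a description with no test. Of the 193 higher genes 118 (61.1%) had their highest mean of the 6 time points at ZT8 and 71 (36.8%) at ZT4, against 21.6% and 21.5% of all genes. Of the 97 lower genes 62 (63.9%) had their lowest mean at ZT8 and 32 (33%) at ZT4, against 18.5% and 11.7% of all genes. The choice of these genes by ZT0 and ZT4 bears on such shares. Relative to ZT0 the median of the higher genes was 0.69 at ZT4, 0.72 at ZT8 and 0.15 at ZT12, and that of the lower genes was -0.78, -0.94 and -0.38.

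The course differed among genes. Rgs16 had means of 122 FPKM at ZT8 and 14.8 FPKM at ZT12, and Bnip3 of 153 and 136 FPKM. Hsp90aa1 was at 23.9 FPKM at ZT8 and back at 113 FPKM at ZT12. Tubb2a had its lowest mean, 8.43 FPKM, at ZT8. Mvd had its lowest mean, 10.7 FPKM, at ZT4, against 12.6 FPKM with an SD of 4.77 at ZT8. Fgf21 was at 0.768 FPKM at ZT8 and at 2.75 FPKM with an SD of 2.39 at ZT20, which does not differ from its ZT4 mean of 2.83 FPKM beyond that spread.

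**Figure D5:**
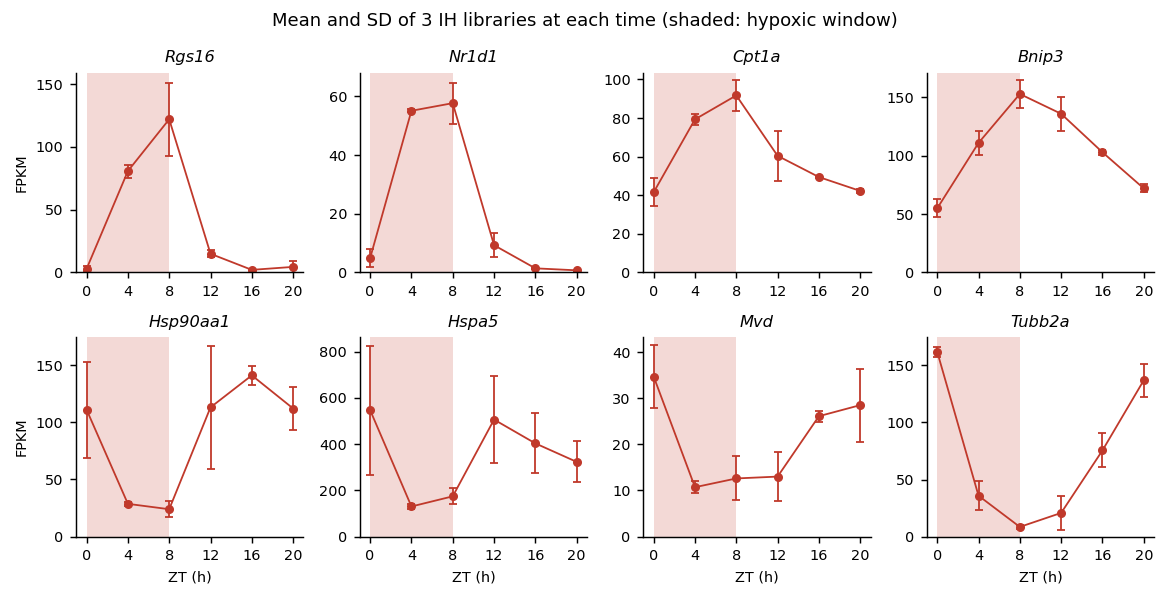
Mean FPKM (y axis, linear) with SD of the 3 IH libraries at each of 6 times (x axis, ZT in hours) for 8 genes, with the hypoxic window from ZT0 to ZT8 shaded. The means of Rgs16, Nr1d1, Cpt1a and Bnip3 are highest at ZT8. Those of Hsp90aa1 and Tubb2a are lowest at ZT8, and those of Hspa5 and Mvd at ZT4. The ZT4 and ZT8 means differ by less than the SD at ZT8 for Nr1d1 (55.1 and 57.7 FPKM, SD 7), Hsp90aa1 (28.6 and 23.9, SD 6.77) and Mvd (10.7 and 12.6, SD 4.77).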

How the data were processed

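Liver RNA was measured by strand-specific polyA sequencing, with 3 animals per time point and condition, so p-values describe the spread between animals. Per the methods of the study, the authors aligned reads to mm10 with TopHat and computed FPKM with Cufflinks, and the deposited tables hold these FPKM values per gene symbol, with one table for IH and one for control. The condition of each column was taken from the name of its table. FPKM values carry no read counts, so no counting interval is given and depth limits low genes by an unknown amount.

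Of 24883 rows, 24066 symbols stand on 1 row, and 280 repeated symbols were left out. Genes averaging 0.1 FPKM or more across the 36 libraries (13215) were tested on log2(FPKM + 1) with limma 3.58.1 (R 4.3.3, variance trend) and Benjamini-Hochberg adjustment over all of them. IH and control were fitted on 6 libraries each, and their difference on 12. Data were simulated for the IH comparison with 200 of 13215 genes changed. Of these, 75% of changes of 1 and 39% of changes of 0.5 (log2) were recovered, with 3 false calls. The simulation drew independent normal values with the same SD in both groups and changed only genes with a mean log2(FPKM + 1) of at least 1. It therefore does not cover lower genes, unequal spread or an outlying library. Figures were drawn with matplotlib 3.10.9.

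The genes named are, for higher and for lower genes, the 15 of lowest p among calls with a mean of at least 1 FPKM and groups that do not overlap, the genes the study names, up to 5 of each list by p, the 5 with the smallest interaction p, and Saa1 and Saa2. Some genes that meet these rules are not reported here. Any other gene named was chosen after its values were seen. These members and lists were chosen with earlier results of these data known. Promoters are from RefSeq (GRCm38.p6), gene positions from GENCODE M21 (GRCm38). Replicate numbers were not taken as pairing the livers.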

Additional observations from a re-analysis of the deposited data

How the results depend on the processing

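In IH, 193 genes were higher and 97 lower. The groups of each call do not overlap, so leaving out a library could not reverse its direction. Each of these calls kept its direction under every alternative that tested it, but their number changed. A mean of at least 1 FPKM tested 159 and 89 of them, and the other alternatives tested all. It was 787 and 468 at an unadjusted p of at most 0.01, 125 and 59 after scaling to a common sum, 454 and 305 with sample weights, 1308 and 886 with all 18 IH libraries, and 0 and 0 with no filter on low values. Leaving out 1 library gave 1 to 842 higher and 0 to 635 lower genes. With a pseudocount of 0.1, a mean of at least 1 FPKM, median-ratio or quantile scaling, no variance trend, or repeated symbols summed, both counts stayed within 1.5 times.

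In control, 9 genes were higher and 24 lower. The counts were 234 and 856 at an unadjusted p of at most 0.01, 1 and 3 with no filter, 46 and 166 at a mean of at least 1 FPKM, 131 and 402 with sample weights, 33 and 129 with no trend, and 60 and 151 with 18 libraries. The balance of higher to lower turned with the scaling, to 20 and 13 with median ratios and to 18 and 12 with quantiles. Leaving out 1 library gave 1 to 15 and 2 to 9. The difference between conditions gave 0 genes, 821 at an unadjusted p of at most 0.01, 4 with no filter, 213 with sample weights, 10 with no trend and 16 with all 36 libraries. Leaving out 1 library gave 0 to 563. The cause of these shifts was not tested.

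With the replicate number as a block, 0 genes were called higher and 0 lower in IH, and 0 and 0 in control. Deviations of same-numbered livers correlated at 0.02, 0.06 and -0.03 in IH and at -0.02, -0.18 and 0.06 in control, so the numbers were not taken as pairing the livers. Of the 72 named genes called, 27, 35 and 72 kept their call without ZT0 replicate 1, 2 and 3, and 11, 3 and 0 without ZT4 replicate 1, 2 and 3.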
